A study of Rattus norvegicus with 12 samples.

Results

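The glucocorticoid receptor gene Nr3c1 and 8 genes tied to its action, Hsd11b1, Fkbp5, Tsc22d3, Sgk1, Klf9, Dusp1, Zbtb16 and Errfi1, were followed in cultured heart cells exposed to a plasticizer. The members were the probe sets whose platform annotation gives exactly 1 gene symbol equal to 1 of these names. All 9 genes were found, each on 1 probe set, among 27342 probe sets in all, of which 15097 carried 1 symbol and stood for 14324 genes. The cells were monolayers of cardiomyocytes from 2-day-old Sprague-Dawley rats, digested out of the heart, plated on laminated coverslips and cultured for 3 days. Cultures of the DEHP group then received 50 µg/mL DEHP in 0.1% DMSO for 3 days, and control cultures received 0.1% DMSO alone for the same 3 days. DEHP, di(2-ethylhexyl) phthalate, is a plasticizer of flexible polyvinyl chloride that leaches from medical tubing and bags. There were 6 DEHP and 6 control arrays, all cells came from 1 litter, and the labels describe samples within a treatment as separate biological replicates.

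Cortisol and corticosterone enter cells and bind the glucocorticoid receptor, which is held ready in the cytoplasm by heat shock chaperones and then moves to the nucleus. There it raises some genes from DNA elements near or far from their starts, and it holds down inflammatory genes, largely by curbing other transcription factors. Heart muscle cells carry the receptor, which is known to take part in the maturation of the fetal heart, and in the adult heart the related mineralocorticoid receptor answers to some of the same steroids.

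Each value is the log2 of a ratio of a probe set's signal to its own median over the 12 arrays, so 0 is that median and the values hold no expression level. The levels of different genes, and the absence of any marker, cannot be read from them. Where the DEHP and control values of a gene lie fully apart, that median falls midway between them, so the value nearest 0 in one group mirrors that of the other. A log2 fold is the mean log2 ratio under DEHP minus that in controls. Differences were tested with limma over all probe sets, and an adjusted p under 0.05 counted as passing. In cultures of mixed cells, fewer cells of a type and less RNA per cell cannot be told apart.

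DEHP replicate 6 and control replicate 5 stood apart from the other arrays. The SD of their log2 ratios over all probe sets was 0.27 and 0.37, against 0.15 to 0.19 in the other 10 arrays. Log2 folds of the 9 genes are given with and without both, and other results where stated. Among markers of cells that a heart culture can hold, the 8 measured smooth muscle and myofibroblast genes all fell. Their mean log2 ratio was between 0.62 and 0.80 in control arrays. It was −1.19 in DEHP replicate 6 and between −0.86 and −0.60 in the other DEHP arrays. Of all genes 24.6% passed, 14.4% higher and 10.2% lower. Of 12 cardiomyocyte markers 4 rose and 3 fell, and of 10 fibroblast markers 4 rose and 6 fell. Of 6 endothelial markers 3 rose and 0 fell (0 lower at an unadjusted limma p under 0.05 as well). Of 10 leukocyte markers 3 rose and 2 fell, of 8 Schwann cell and neuronal markers 0 rose and 3 fell (0 higher at an unadjusted limma p under 0.05), and of 6 erythroid markers 0 passed (0 higher and 1 lower at an unadjusted limma p under 0.05). Without both arrays that stood apart, 4 cardiomyocyte markers rose and 4 fell, and 3 leukocyte markers rose and 5 fell. Endothelial markers were then 4 higher and 0 lower, and Schwann cell and neuronal markers 0 higher and 2 lower. The smooth muscle, fibroblast and erythroid counts did not change. Of all genes 15.7% then rose and 12.7% fell. By list mean, DEHP replicate 6 was the lowest DEHP array in all lists but the leukocyte one, where it was highest. The part of these cell markers in the results below was not tested.

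Under DEHP the receptor gene, the enzyme that makes its hormone and 2 of its targets were higher, 2 targets that curb growth factor signalling were lower, and 3 targets did not pass. Nr3c1 rose 1.49-fold, Sgk1 1.44-fold, Fkbp5 1.33-fold and Hsd11b1 1.26-fold. Errfi1 was 1.34-fold lower and Dusp1 1.29-fold lower under DEHP. So 4 of the 9 genes rose and 2 fell. Among all 14324 genes, 24.6% passed, 14.4% higher and 10.2% lower. The median log2 fold of the 9 genes was 0.23, against −0.018 over all genes, and the median size of the change without regard to sign was 0.37 against 0.11. The DEHP and control values lay fully apart in 5 of the 9 genes, namely Nr3c1, Hsd11b1, Sgk1, Dusp1 and Errfi1, and in 16.9% of all genes. These genes were picked with earlier results of the same arrays known, so the counts describe them and nothing particular to the pathway can be read from them.

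**Figure D1:**
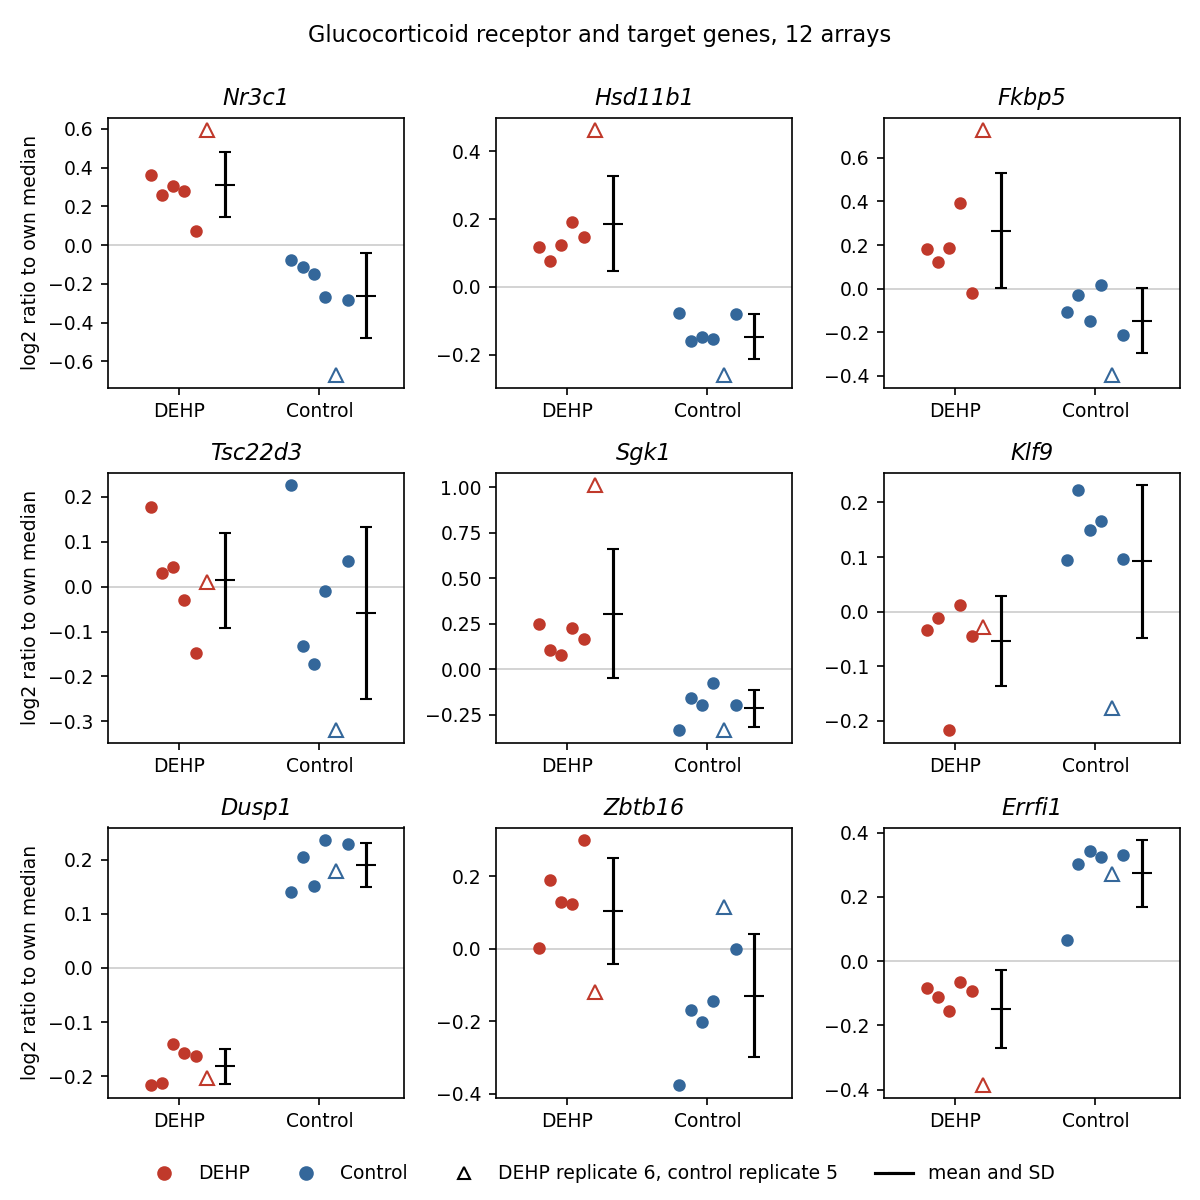
Log2 ratio of each of the 9 genes (vertical axes, ratio to the gene's own median) in 6 DEHP arrays (left, red) and 6 control arrays (right, blue), with the mean and SD of each group. Open triangles mark DEHP replicate 6 and control replicate 5. The groups lie apart in Nr3c1, Hsd11b1, Sgk1, Dusp1 and Errfi1, and DEHP replicate 6 is the highest of the 12 arrays in Nr3c1, Hsd11b1, Fkbp5 and Sgk1.

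The upstream sequences of 4 members that passed are shown, 2 that fell and 2 that rose, because the receptor's classical route to a gene is through a DNA element. RefSeq promoter windows of assembly GRCr8, from 250 bases before to 50 after a gene's start, were held for 7 of the 9 genes. There were 12 windows, since some genes have several starts, and none for Hsd11b1 and Zbtb16. For each gene the 250 bases before the start are printed, taking the window listed first where there are several. Capitals mark a cyclic AMP response element in Dusp1, a TATA box in Errfi1 and GC boxes in Nr3c1 and Fkbp5, each counted on both strands.
Dusp1 promoter, chr10:17184603-17184852, plus strand: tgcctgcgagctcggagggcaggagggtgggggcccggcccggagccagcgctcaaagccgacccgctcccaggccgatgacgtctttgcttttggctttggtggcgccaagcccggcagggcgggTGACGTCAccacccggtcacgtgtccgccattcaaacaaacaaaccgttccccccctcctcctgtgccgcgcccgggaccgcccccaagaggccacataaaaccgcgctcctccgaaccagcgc
Errfi1 promoter, chr5:166606591-166606840, plus strand: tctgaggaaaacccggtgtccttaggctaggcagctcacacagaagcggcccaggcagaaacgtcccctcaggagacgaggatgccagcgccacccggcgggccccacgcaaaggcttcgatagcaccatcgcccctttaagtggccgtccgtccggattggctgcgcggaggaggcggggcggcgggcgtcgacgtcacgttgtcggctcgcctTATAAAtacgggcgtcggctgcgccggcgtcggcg
Nr3c1 promoter, chr18:31614220-31614469, minus strand: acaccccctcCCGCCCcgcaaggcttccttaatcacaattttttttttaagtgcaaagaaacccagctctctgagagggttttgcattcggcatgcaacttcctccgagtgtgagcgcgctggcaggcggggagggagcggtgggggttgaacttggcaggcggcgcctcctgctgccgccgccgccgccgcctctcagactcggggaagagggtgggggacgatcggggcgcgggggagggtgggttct
Fkbp5 promoter, chr20:6543556-6543805, minus strand: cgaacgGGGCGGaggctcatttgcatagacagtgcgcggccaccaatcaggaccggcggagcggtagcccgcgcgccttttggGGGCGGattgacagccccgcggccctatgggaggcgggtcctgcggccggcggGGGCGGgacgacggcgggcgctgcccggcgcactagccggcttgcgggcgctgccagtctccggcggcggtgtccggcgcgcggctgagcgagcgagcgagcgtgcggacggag
The whole glucocorticoid response element, searched as AGAACA, any 3 bases and TGTTCT, was in 0 of the 12 windows of these genes and in 0.0149% of all 33469 promoter windows. Either arm of it alone, AGAACA or TGTTCT, which the whole element contains, was in 0 of the 12 windows and in 20.7% of all windows. No match says only that these letters are not in these windows. The cyclic AMP response element, TGACGTCA, was in the Dusp1 window alone, 124 bases before the start, and in 1.83% of all windows. The TATA box, TATAAA or TTTATA, was in 4 of the 12 windows, of 3 genes, Sgk1, Errfi1 and Tsc22d3, and in 14.2% of all windows. The GC box, GGGCGG or CCGCCC, was in 9 of the 12 windows, of 6 genes, and in 33.1% of all windows. A match is a run of letters and is no evidence of binding.

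With all arrays the receptor gene had the largest change of the 9 genes, while without control replicate 5 that of Sgk1 was larger (log2 fold 0.50 against 0.49 for Nr3c1). Nr3c1 (probe set 10804132) had a lowest, median and highest log2 ratio of 0.075, 0.29 and 0.60 in DEHP arrays, against −0.67, −0.21 and −0.075 in control arrays. All DEHP values were above 0 and all control values below 0, and the ends of the range were DEHP replicate 6 and control replicate 5. Its log2 fold was 0.57 ± 0.10 (SE), with a 95% confidence interval of 0.35 to 0.80 and a limma adjusted p of 0.00160. DEHP arrays averaged 0.31 ± 0.17 and control arrays −0.26 ± 0.22 (SD, n = 6 each). Without both arrays that stood apart the log2 fold was 0.43 ± 0.06 (adjusted p = 0.000226).

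Hsd11b1 encodes the enzyme of the endoplasmic reticulum that turns inactive cortisone or dehydrocorticosterone back into the active hormone inside the cell. Its log2 ratios (probe set 10770795) had a lowest, median and highest value of 0.077, 0.14 and 0.46 in DEHP arrays, against −0.26, −0.15 and −0.077 in control arrays. The groups lay apart, and DEHP replicate 6 was well above the next DEHP array, at 0.19. Hsd11b1 had a log2 fold of 0.33 ± 0.06 (95% confidence interval 0.20 to 0.47, limma adjusted p = 0.00197), and 0.26 ± 0.04 without both arrays that stood apart.

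Among the targets, Fkbp5 encodes an immunophilin that binds the receptor complex, lowers its affinity for hormone and so closes a feedback loop. Fkbp5 (probe set 10831940) had a lowest, median and highest log2 ratio of −0.019, 0.18 and 0.73 in DEHP arrays, against −0.40, −0.13 and 0.019 in control arrays. The groups overlapped, since DEHP replicate 5 lay below control replicate 4, and the ends were again DEHP replicate 6 and control replicate 5. The log2 fold was 0.41 ± 0.11 (95% confidence interval 0.17 to 0.66, limma adjusted p = 0.0220). It was 0.27 ± 0.07 without both arrays (adjusted p = 0.0173), and without DEHP replicate 4 the call was lost (log2 fold 0.39, adjusted p = 0.0530).

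Sgk1 encodes a serine-threonine kinase that glucocorticoids and mineralocorticoids induce and that acts on ion channels and transporters. For Sgk1 (probe set 10717331) the lowest, median and highest log2 ratio was 0.076, 0.20 and 1.01 in DEHP arrays, against −0.34, −0.20 and −0.076 in control arrays. The groups lay apart, but DEHP replicate 6 was at 1.01 and the next DEHP array at 0.25. With all arrays its log2 fold was 0.52 ± 0.14 (95% confidence interval 0.23 to 0.82, limma adjusted p = 0.0170). Without both arrays that stood apart it was 0.36 ± 0.05, and its adjusted p was 0.000363.

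Dusp1 encodes a phosphatase that inactivates MAP kinases and is one of the classical anti-inflammatory targets of the receptor. It had the smallest p of the 9 genes, rank 336 of the 27342 probe sets. Its log2 ratios (probe set 10732652) had a lowest, median and highest value of −0.22, −0.18 and −0.14 in DEHP arrays, against 0.14, 0.19 and 0.24 in control arrays. The spread within a group was small, with an SD of 0.033 under DEHP and 0.040 in controls (n = 6 each), and neither of the arrays that stood apart was an end of its group. The log2 fold was −0.37 ± 0.03 (95% confidence interval −0.44 to −0.30, limma adjusted p = 3.09e-06), and −0.37 ± 0.03 without both arrays.

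Errfi1 encodes an inhibitor of the EGF receptor family that growth factors as well as glucocorticoids induce. Errfi1 (probe set 10874193) had a lowest, median and highest log2 ratio of −0.39, −0.10 and −0.065 in DEHP arrays, against 0.065, 0.31 and 0.34 in control arrays. The groups lay apart. DEHP replicate 6 was the lowest DEHP array and control replicate 1 the lowest control, with the next control at 0.27. Errfi1 thus had a log2 fold of −0.42 ± 0.06 (95% confidence interval −0.56 to −0.28, limma adjusted p = 0.000393), and −0.37 ± 0.05 without both arrays that stood apart. By group means Dusp1 and Errfi1 were lower under DEHP and Fkbp5 and Sgk1 higher, though all 4 are known as genes that glucocorticoids raise. In DEHP replicate 5 Fkbp5 was not raised (−0.019).

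Tsc22d3, which encodes the leucine zipper protein GILZ and is among the most used markers of receptor activity, did not pass. Its log2 ratios (probe set 10939516) had a lowest, median and highest value of −0.15, 0.020 and 0.18 in DEHP arrays, against −0.32, −0.071 and 0.23 in control arrays. The highest and the lowest of the 12 arrays were both controls, replicates 1 and 5. The log2 fold was 0.072 ± 0.084, with a 95% confidence interval of −0.11 to 0.25, a limma adjusted p of 0.614 and 0.021 ± 0.080 without both arrays that stood apart.

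Klf9, a Kruppel-like repressor that glucocorticoids and thyroid hormone induce, did not pass with all arrays. The lowest, median and highest log2 ratio of Klf9 (probe set 10714413) was −0.22, −0.031 and 0.012 in DEHP arrays, against −0.18, 0.12 and 0.22 in control arrays. The overlap came from control replicate 5 alone, since the other 5 controls lay at 0.095 or above. Klf9 had a log2 fold of −0.15 ± 0.06 (95% confidence interval −0.29 to −0.0065, limma adjusted p = 0.155). Without control replicate 5 it was −0.20 (adjusted p = 0.00650), and without both arrays that stood apart −0.21 ± 0.05 (adjusted p = 0.00869).

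Zbtb16 encodes a zinc finger repressor that glucocorticoids strongly induce in many human and rodent cells. Its log2 ratios (probe set 10917116) had a lowest, median and highest value of −0.12, 0.13 and 0.30 in DEHP arrays, against −0.38, −0.16 and 0.11 in control arrays. DEHP replicate 6 was the lowest DEHP array and control replicate 5 the highest control, the reverse of their places in Nr3c1. The log2 fold was 0.23 ± 0.09 with all arrays (95% confidence interval 0.048 to 0.42, limma adjusted p = 0.0825). It passed without control replicate 5 (0.28, adjusted p = 0.0222), without DEHP replicate 6 (0.28, adjusted p = 0.0360) and without both (0.33 ± 0.07, adjusted p = 0.00510).

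Leaving out both arrays made the 9 genes 5 higher, 3 lower and 1 not passing, while 28.4% of all genes then passed, 15.7% higher and 12.7% lower. Among the genes that passed with all arrays, the size of the log2 fold was smaller by 1.32 times in Nr3c1, 1.31 times in Hsd11b1, 1.53 times in Fkbp5 and 1.46 times in Sgk1. It was smaller by 1.13 times in Errfi1 and nearly the same in Dusp1 (1.01 times). For Klf9 and Zbtb16 it was larger without these arrays. An exact two-sided permutation test of each gene over the 924 splits of the arrays gave 0.00216, the smallest p it can give, for Nr3c1, Hsd11b1, Sgk1, Dusp1 and Errfi1. Groups that lie fully apart always give that p, so for these 5 genes it adds nothing to the separation. The test gave exact p of 0.00433 for Fkbp5, 0.0238 for Zbtb16, 0.0649 for Klf9 and 0.463 for Tsc22d3.

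**Figure D2:**
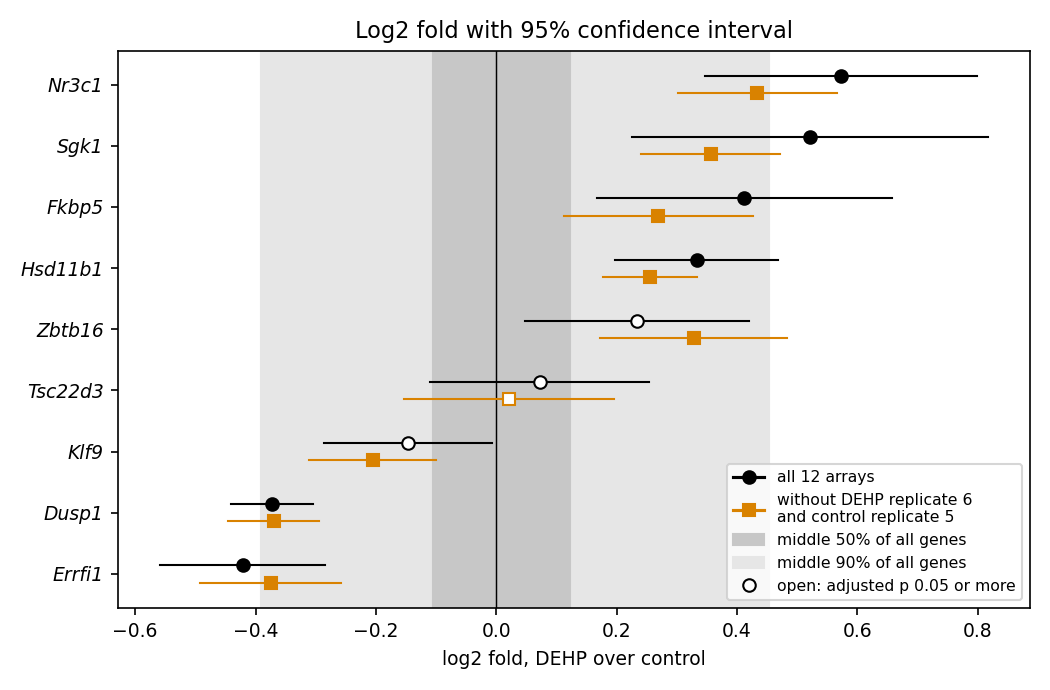
Log2 fold of DEHP over control (horizontal axis) for each of the 9 genes, with its 95% confidence interval. Black circles use all 12 arrays and orange squares leave out DEHP replicate 6 and control replicate 5. Filled symbols passed at an adjusted p under 0.05. The grey bands hold the middle 50% (−0.11 to 0.12) and the middle 90% (−0.39 to 0.45) of all 14324 genes, and with all arrays Nr3c1, Sgk1 and Errfi1 lie outside the wider band.

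Within a group the members did not vary alike from array to array. Nr3c1 was set against each of the other 8 genes within each group, 16 relations of 6 arrays each, because the groups form separate clusters. The clearest relation was inverse. Under DEHP, Zbtb16 was lower in arrays with more Nr3c1 (r = −0.97, exact permutation p = 0.00278, 0.0444 adjusted over the 16). Spearman's rho there was −0.94, with an exact permutation p of 0.0167, which became 0.133 after adjustment. In controls the same relation had r = −0.88 (exact permutation p = 0.00694, 0.0556 adjusted) and rho = −0.94 (exact permutation p = 0.0167, 0.133 adjusted). Without the 2 arrays farthest from the median of Nr3c1, r was −0.96 in the 4 remaining DEHP arrays and −0.75 in the 4 remaining controls. Between groups both means ran the same way, though the difference in Zbtb16 did not pass (0.10 ± 0.15 in DEHP arrays and −0.13 ± 0.17 in control arrays, SD, n = 6 each).

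Fkbp5 ran with Nr3c1 under DEHP (r = 0.89, exact permutation p = 0.0194, 0.104 adjusted, rho = 0.77 with exact permutation p = 0.103, 0.548 adjusted). Without DEHP replicates 5 and 6 its r was −0.17, so the relation rests on these arrays. In controls r was 0.79 (exact permutation p = 0.0639, 0.169 adjusted, rho = 0.60 with exact permutation p = 0.242, 0.632 adjusted), and 0.21 without control replicates 1 and 5. Sgk1 had r = 0.82 with Nr3c1 under DEHP (exact permutation p = 0.0694, 0.169 adjusted, rho = 0.60 with exact permutation p = 0.242, 0.632 adjusted) and 0.51 without DEHP replicates 5 and 6. In controls Sgk1 had r = 0.32 (exact permutation p = 0.576, 0.659 adjusted, rho = −0.14 with exact permutation p = 0.803, 0.856 adjusted), and −0.29 without control replicates 1 and 5. Genes not drawn also had large r with Nr3c1. Klf9 had r = 0.89 in controls, and 0.74 without control replicates 1 and 5. Errfi1 had r = −0.81 under DEHP, and 0.10 without DEHP replicates 5 and 6. Hsd11b1 had r = 0.76 under DEHP and 0.77 in controls, and −0.023 and −0.64 without these arrays. None of the 16 relations but that of Zbtb16 under DEHP had an adjusted Pearson p under 0.05, and none had an adjusted Spearman p under 0.05.

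**Figure D3:**
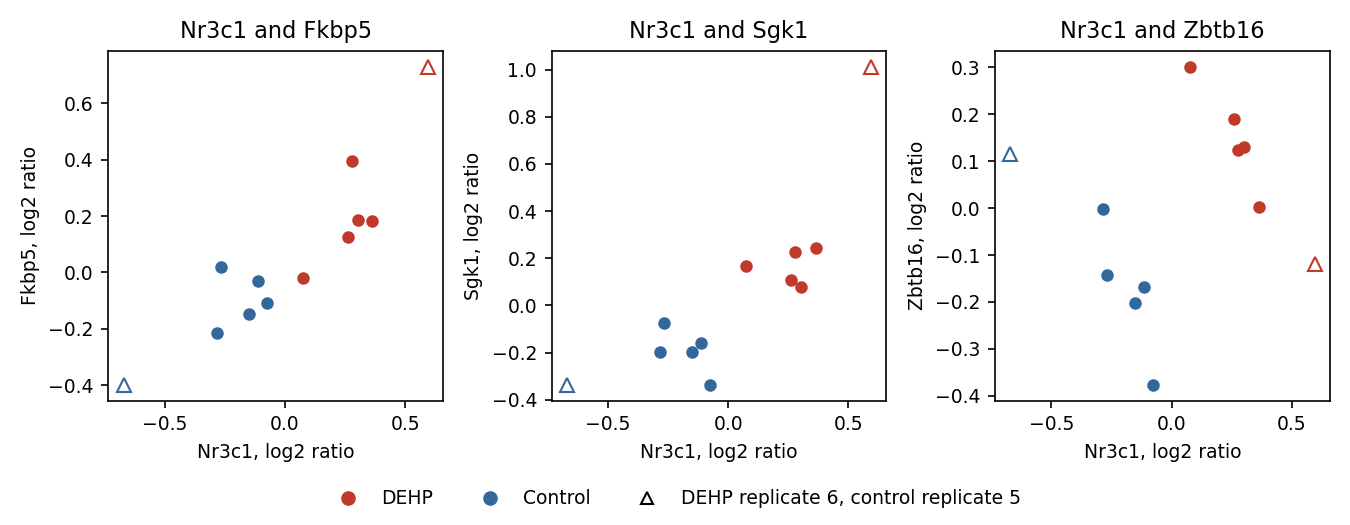
Log2 ratio of Fkbp5, Sgk1 and Zbtb16 (vertical axes) against that of Nr3c1 (horizontal axes) in 6 DEHP arrays (red) and 6 control arrays (blue), with DEHP replicate 6 and control replicate 5 as open triangles. In the panel of Zbtb16 the points of each group run downwards, with r = −0.97 under DEHP and −0.88 in controls.

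Of all genes, the 3 whose log2 ratios over the 12 arrays were most like those of Nr3c1 were Slc4a1ap, Stat2 and Lin37, with Pearson's r of 0.990, 0.987 and 0.986. In deviations from the group means, which leave out the difference between groups, they were Usp53, Chchd4 and Washc2c, with r of 0.978, 0.977 and 0.972. For Sgk1, the gene with the next largest change, added after its values were seen, the most alike over the 12 arrays were Steap1, Sod2 and Nfkbia (r of 0.987, 0.984 and 0.982). In deviations from the group means they were Vcam1, Selp and Serpinb2 (r of 0.986, 0.980 and 0.977). These values describe likeness alone, and the far values of DEHP replicate 6 or control replicate 5 enter all of them.

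The wider pathway was followed in 5 lists, of which 11 of 13, 12 of 12, 11 of 13, 48 of 52 and 23 of 23 genes were measured. These lists too were written with earlier results of the same arrays known, so their counts describe the listed genes alone. Among genes of steroid handling and related receptors, 4 of 11 rose and 0 fell (0 by limma, with 2 lower at an unadjusted p under 0.05), a share of 36.4% against 24.6% of all genes, and the median log2 fold was −0.036. Nr3c2, the mineralocorticoid receptor gene, rose along with Nr3c1. Its log2 ratios had a lowest, median and highest value of 0.033, 0.080 and 0.30 in DEHP arrays, against −0.48, −0.24 and −0.033 in control arrays (log2 fold 0.38 ± 0.08, limma adjusted p = 0.00355). The groups lay apart. Star, which carries cholesterol into mitochondria for steroid synthesis, rose (0.55 ± 0.11), as did Abcb1b (1.18 ± 0.15) and Abcb1a (0.36 ± 0.07), closely related drug exporters that also pump steroids and may share signal between their probes. Hsd11b2, the enzyme that inactivates the hormone, had a log2 fold of −0.20 ± 0.12 and did not pass (limma adjusted p = 0.303).

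Among 12 receptor chaperones 2 rose and 0 fell (0 by limma, with 1 lower at an unadjusted p under 0.05), a share of 16.7% against 24.6% of all genes, with a median log2 fold of 0.12. St13, the Hsp70-interacting cochaperone of receptor assembly, rose (0.40 ± 0.04), and its 3 probe sets lay between 0.38 and 0.40. Hsp90ab1, a chaperone that holds the receptor ready for hormone, rose by less (0.17 ± 0.04). Fkbp4, the immunophilin that competes with Fkbp5 on the complex, did not pass (0.18 ± 0.07, limma adjusted p = 0.0991) and passed without both arrays that stood apart (0.18 ± 0.06, adjusted p = 0.0448). In that fit 3 of the 12 rose and 2 fell, beside 15.7% of all genes higher and 12.7% lower. The 2 that fell, named after their values were seen, were Hsp90aa1 (−0.18 ± 0.05, limma adjusted p = 0.0390) and Dnaja1 (−0.17 ± 0.05, adjusted p = 0.0219). With all arrays Hsp90aa1 had −0.11 ± 0.07 and Dnaja1 −0.12 ± 0.05, and neither passed. Hspa8 had 0.081 ± 0.033 and did not pass.

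Receptor coregulators rose in 5 of 11 cases and 0 fell (0 by limma, with 0 lower at an unadjusted p under 0.05), a share of 45.5% against 24.6% of all genes, 14.4% higher, with a median log2 fold of 0.21. The 3 steroid receptor coactivators all rose, Ncoa1 by 0.49 ± 0.07, Ncoa2 by 0.36 ± 0.06 and Ncoa3 by 0.26 ± 0.04, as did Med1, the Mediator subunit that nuclear receptors bind (0.29 ± 0.06). The DEHP and control values of these 4 genes lay apart. The other gene that rose was the corepressor Ncor1 (0.32 ± 0.09, limma adjusted p = 0.0213), named after its values were seen, and its groups overlapped. The 6 that did not pass included the coactivators Crebbp and Ep300. Ncoa1 had a lowest, median and highest log2 ratio of 0.12, 0.30 and 0.36 in DEHP arrays, against −0.56, −0.17 and −0.12 in control arrays. Control replicate 5 was its lowest array, and the mean of the list there was −0.40, against −0.13 to −0.020 in the other controls.

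Of 48 other genes known to be raised by glucocorticoids, 20 rose, 6 fell and 22 did not pass, with a median log2 fold of 0.15. The share that passed was 54.2%, against 24.6% of all genes, 14.4% higher and 10.2% lower. The smallest p were those of Pdk4 (3.43 ± 0.06), Ptgds, a prostaglandin D synthase (1.41 ± 0.07), Trim63, the muscle ubiquitin ligase MuRF1 (1.39 ± 0.08), and Lpin1, a phosphatidate phosphatase (1.23 ± 0.08). Pdk4 and Lpin1 are also known as targets of other nuclear receptors, so the list does not belong to the glucocorticoid receptor alone. The 6 that fell, named after their values were seen, were Mfsd2a (−1.14 ± 0.10), Slc10a6 (−0.83 ± 0.20), Rgs2 (−0.76 ± 0.10), Anxa1 (−0.50 ± 0.07), Gadd45b (−0.48 ± 0.06) and Il1r2 (−0.24 ± 0.04). Anxa1 encodes annexin A1, an anti-inflammatory protein, and Rgs2 a regulator of G protein signalling. Per1, a clock gene with a well-known glucocorticoid response element, did not pass (−0.071 ± 0.038, limma adjusted p = 0.259). Without both arrays that stood apart 23 of the 48 rose and 8 fell, while 15.7% of all genes rose and 12.7% fell.

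Among 23 genes that glucocorticoids hold down, 6 rose, 1 fell and 16 did not pass, a share of 30.4% that passed against 24.6% of all genes, with a median log2 fold of 0.22. Most of them are inflammatory, and the stress hormone genes Pomc and Crh, which did not pass, are among them. Pla2g2a, a secreted phospholipase, had the smallest p and rose by 0.87 ± 0.04. Vcam1, an adhesion molecule, rose by 1.19 ± 0.17, Cxcl10, a chemokine, by 1.16 ± 0.19, and Mmp9, a gelatinase, by 1.04 ± 0.12. Lif, a cytokine, was the gene that fell (−0.93 ± 0.28, limma adjusted p = 0.0340), named after its values were seen, and its call was lost in 9 of the 12 omissions of a single array. Without both arrays that stood apart the log2 fold of Lif was −1.21 ± 0.08 (limma adjusted p = 7.04e-07).

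This list showed most plainly how DEHP replicate 6 differed. Its mean log2 ratio was 1.35 there, while the other DEHP arrays lay between −0.073 and 0.032 and the controls between −0.18 and −0.0045, and 20 of the 23 genes were highest in that array. Il1b and Nos2 are given as examples chosen after their values were seen. Il1b was at 3.02 in DEHP replicate 6 and between −0.80 and 0.36 in the other 11 arrays. Nos2, the inducible nitric oxide synthase, was at 3.02 there and between −0.28 and 0.075 elsewhere. Of the members, Nr3c1, Hsd11b1, Fkbp5 and Sgk1 were also highest in this array. Zbtb16 and Errfi1 had their lowest DEHP value there, and Tsc22d3, Klf9 and Dusp1 were at neither end of the DEHP group. Whether what set DEHP replicate 6 apart bears on the values of the receptor's targets there was not tested.

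Without both arrays that stood apart, 9 of the 23 genes rose and 5 fell, beside 15.7% of all genes higher and 12.7% lower. The genes that passed only then, named after their values were seen, differed in direction. Il1b had a log2 fold of −0.83 ± 0.07, Ptgs2, the inducible cyclooxygenase, −0.66 ± 0.07, Cxcl2 −0.64 ± 0.07 and Il1a −0.47 ± 0.11. Mmp3 (0.44 ± 0.07), Il6 (0.35 ± 0.09) and Tnf (0.35 ± 0.07) were higher. All of these genes but Tnf also passed without DEHP replicate 6 alone. With all arrays the log2 fold of Il1b was −0.18 ± 0.55, since 1 array of the 6 carried the high value.

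**Figure D4:**
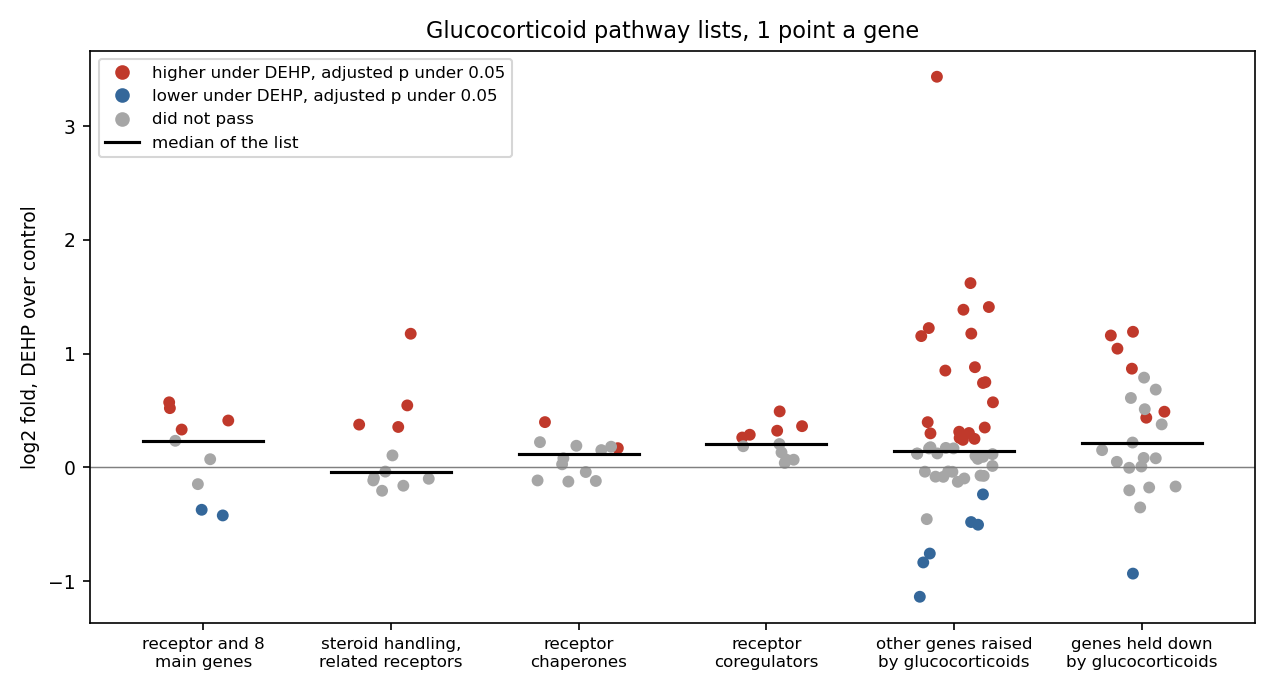
Log2 fold of DEHP over control (vertical axis), 1 point a gene, for the 9 genes and 5 wider pathway lists, all 12 arrays. Red points passed as higher, blue points passed as lower, grey points did not pass, and black lines are the medians of the lists (0.23, −0.036, 0.12, 0.21, 0.15 and 0.22, left to right).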

How the data were processed

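RMA was the method applied to the Affymetrix arrays, per the submitters' processing notes, which give no version. What the authors deposited is a linear ratio for each of 27342 probe sets. The median log2 ratio of each probe set over the 12 arrays was 0 within 5.00e-07, so ratios are relative to that median. The sources used here give no genome build for the probes. The number of arrays limits the precision.

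Log2 ratios entered limma 3.58.1 (R 4.3.3; lmFit, eBayes, two-sided) with no further normalization, and p-values were adjusted by Benjamini-Hochberg over every probe set. They measure the spread between cultures of 1 litter. A gene with several probe sets took its lowest-numbered one. Scripts were tested on simulated data. The platform annotation named the genes, and RefSeq (GRCr8) gave the same symbol for all 9 members by Entrez identifier. From the wider lists the naming rule took the 4 genes with the smallest p, plus Nr3c2 (already among them), Hsd11b2 and Per1; others were named after their values were seen, as the text says. Members and lists were chosen with earlier results of these data known. Correlations used exact permutations (scipy 1.17.1).

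Alternatives were quantile normalization, median centring, array weights, robust eBayes, a replicate block, single-symbol probe sets alone, the mean over a gene's probe sets (for the member counts only, and the members have 1 each), an adjusted p under 0.01, and omission of each array or of DEHP replicate 6 with control replicate 5. For the wider lists they were chosen after seeing the data. Plots used matplotlib 3.10.9.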

Additional observations from a re-analysis of the deposited data

Results flagged for a closer look

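An array far from the rest of its own group, by Dixon's test at 95%, was found in 7 of the 18 groups of the 9 genes and in 21 of the 74 groups of the genes named from the wider lists. Ncor1, Crebbp, Ep300, Hsp90aa1, Dnaja1, Pomc and Crh were not among the genes tested. Chance flags about 1 in 20 groups, and some of these genes were named because DEHP replicate 6 stood apart in them. Of the members, DEHP replicate 6 was high in Sgk1 (1.01, next 0.25) and Hsd11b1 (0.46, next 0.19) and low in Errfi1 (−0.39, next −0.15). Control replicate 5 was low in Nr3c1 (−0.67, next −0.28) and Klf9 (−0.18, next 0.095). DEHP replicate 3 was low in Klf9 (−0.22, next −0.045), and control replicate 1 was low in Errfi1 (0.065, next 0.27). Of the wider lists, DEHP replicate 6 was high in Vcam1 (1.55, next 0.52), Cxcl10 (1.53, next 0.67), Abcb1b (1.30, next 0.62), Mmp9 (1.02, next 0.49) and Star (0.68, next 0.21). Control replicate 5 was low in Lpin1 (−0.92, next −0.61) and Ncoa1 (−0.56, next −0.18). Of the genes named after their values were seen, DEHP replicate 6 was high in Il1b (3.02, next −0.52), Nos2 (3.02, next 0.029), Cxcl2 (2.84, next −0.17), Il1a (2.72, next 0.033), Tnf (2.69, next 0.22), Mmp3 (2.42, next 0.43), Il6 (1.52, next 0.31), Ptgs2 (1.23, next −0.42), Lif (0.73, next −0.91) and Gadd45b (−0.045, next −0.28). It was low in Slc10a6 (−1.41, next −0.29) and Rgs2 (−0.92, next −0.40). Control replicate 5 was low in Slc10a6 (0.12, next 0.44), and control replicate 1 was low in Lif (−0.17, next 0.17). All values are log2 ratios.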

How the results depend on the processing

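Over 21 alternatives a gene, Nr3c1, Hsd11b1, Dusp1 and Errfi1 passed in the same direction in all, and Tsc22d3 passed in none. Fkbp5 lost its call in 2 and Sgk1 in 1, in each case including an adjusted p under 0.01. Zbtb16 passed in 7 alternatives, 1 of them the unadjusted exact permutation test, and Klf9 in 4. No direction reversed for any of the 9 genes. The count of genes that rose ranged from 3 to 5 and of those that fell from 2 to 3 when single arrays were left out, and 2 rose at an adjusted p under 0.01. Over all probe sets 5016 passed, 4211 to 5556 without single arrays, 7614 with array weights and 3238 at an adjusted p under 0.01, where the threshold itself is stricter. Why array weights gave more calls was not tested. Without both arrays that stood apart 5780 passed, of which 4586 were shared, 91.4% of the calls with all arrays and 79.3% of the calls without them. Replicate numbers were not taken to pair the samples, because not every pair of same-numbered arrays correlated above 0.1 in its deviations (5 of 6 did, the highest at 0.77, and the pair numbered 6 was at 0.072), and 2 of the 6 DEHP arrays correlated best with their own number. With the replicate number as a block 6541 probe sets passed, and 5 of the 9 genes rose and 2 fell, Zbtb16 having an adjusted p of 0.0363, and Hsd11b2 passed at 0.0453. Among genes held down by glucocorticoids the count that fell ran from 0 to 5 without single arrays, and was 5 without DEHP replicate 6. The count of chaperones that rose was 2 with all arrays, 4 with array weights and 5 with the replicate block. The count of chaperones that fell was 0, 2 and 1 in the same order, and 2 without both arrays that stood apart. Of the genes named after their values were seen, Cxcl2 and Il1a, near 0 with all arrays, changed sign. Cxcl2 had a log2 fold of −0.32 with quantile normalization, −0.44 with array weights, −0.64 without both arrays that stood apart and −0.50 (without DEHP replicate 6) to 0.12 without single arrays, among them −0.010 without control replicate 2 and −0.12 without control replicate 5. For Il1a it was −0.22 with quantile normalization, −0.26 with array weights, −0.47 without both arrays and −0.41 (without DEHP replicate 6) to 0.23 without single arrays. The arrays limit these results to 6 cultures a group, and no level or background signal was held to set a floor.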
